A study of Mus musculus with 6 samples.

Results

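Expression of 9 genes of synaptic vesicles, transmitter release and synaptic adhesion was compared between wild type (WT) mouse embryonic stem cells (ESCs) and ESCs with a knockout (KO) of *Patz1*: *Sv2a*, *Sv2b*, *Sv2c*, *Syp*, *Syt1*, *Snap25*, *Stx1a*, *Vamp2* and *Igsf21*. They were taken by symbol from the 23420 gene symbols of the count files, and each symbol is a row of all 6 files. *Sv2a* and *Igsf21* were chosen because they stood among the highest rises in the KO, so their difference between genotypes is given as a description, with no test. The other 7 were chosen by function, although with earlier results of these data known, and their differences were tested. The question was whether the rise was of single genes or of the neuronal programme.

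The libraries came from E14 ESCs, a mouse line grown here with LIF and with 2i, a pair of inhibitors of MEK1/2 and GSK3. There were 3 libraries of WT cells and 3 of *Patz1* -/- (KO) cells, made from ribosomal-RNA-depleted total RNA with a stranded kit. In the study, KO lines were made with CRISPR/Cas9 and grown from single clones. The labels do not say how many clones gave the 3 KO libraries, so an effect of the genotype and one of a clone cannot be told apart. The study describes the ESC libraries as 3 biological replicates. Neither it nor the labels say whether these were separate cultures of 1 clone or separate clones, and p-values measure the spread between these libraries.

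Synaptic vesicles store transmitter at nerve endings and release it when calcium enters. The SV2 proteins are glycoproteins of the vesicle membrane, synaptophysin (*Syp*) is an abundant protein of the same membrane, and synaptotagmin 1 (*Syt1*) is its calcium sensor. Fusion is driven by the SNARE proteins synaptobrevin 2 (*Vamp2*) on the vesicle and syntaxin 1A (*Stx1a*) and SNAP-25 (*Snap25*) on the plasma membrane. IGSF21 is an immunoglobulin superfamily protein of synaptic adhesion that binds neurexin 2. Outside the nervous system, many neuronal genes of this kind are held low by the repressor REST. PATZ1 is a zinc finger protein that binds G-rich DNA.

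Promoter windows of 300 bases (250 before to 50 after each start) were taken from RefSeq on GRCm38.p6 and matched 7 of the 9 genes. *Snap25* and *Vamp2* had no window. The sequences before the start are shown for the pair of genes that chose the set and for *Stx1a*, which had the highest level of the 9 genes in WT. The letters GGGAGGG, the core of the G-rich MAZ-like motif, are in capitals on either strand. The *Sv2a* stretch ends soon after the GENCODE start of the gene, and the other 2 lie before it.
*Sv2a*, chr3:96180977-96181153, plus strand: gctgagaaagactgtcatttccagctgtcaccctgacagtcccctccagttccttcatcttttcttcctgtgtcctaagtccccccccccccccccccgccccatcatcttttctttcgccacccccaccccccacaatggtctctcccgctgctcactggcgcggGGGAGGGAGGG
*Igsf21*, chr4:140246812-140247061, minus strand: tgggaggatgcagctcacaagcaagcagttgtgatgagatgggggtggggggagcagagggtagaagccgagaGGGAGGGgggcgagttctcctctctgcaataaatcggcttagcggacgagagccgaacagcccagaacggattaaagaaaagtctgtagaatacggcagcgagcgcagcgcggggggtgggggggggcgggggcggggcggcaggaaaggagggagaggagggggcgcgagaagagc
*Stx1a*, chr5:135023232-135023481, plus strand: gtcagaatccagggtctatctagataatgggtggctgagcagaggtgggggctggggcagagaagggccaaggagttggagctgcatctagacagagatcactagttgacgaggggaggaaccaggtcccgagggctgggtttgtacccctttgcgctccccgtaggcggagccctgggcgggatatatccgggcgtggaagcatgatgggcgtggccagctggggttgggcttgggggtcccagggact

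Of the 32851 windows of this length in the table, 22% held GGGAGGG on at least 1 strand, so the match is common. The *Sv2a* window held 3 matches, of which 2 overlapped each other and began 84 and 80 bases before the RefSeq start. The *Igsf21* window held 1, which began 177 bases before it. The *Stx1a* window held none. Of the 11 windows of the 7 genes, 5 held the letters, and they included a window each of *Sv2b*, *Sv2c* and *Syp*, whose counts are given below. The GC content was 68% in the *Sv2a* window, 65.7% in that of *Igsf21* and 66.3% in that of *Stx1a*, against a median of 52.7% over all windows. The letters TCAGCAC and GGACAGC, short parts of the left and the right side of the REST element, occurred in 5.12% and 6.56% of all windows and in 0 of the 11 windows here. Binding was not measured in these libraries.

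Depth was uneven within each genotype and alike between genotypes, with 11040756 to 47721070 counts per library. Replicate 3 of both genotypes was the shallowest, and its share of counts from the ribosomal RNA gene *Rn45s* was 12.5% in KO and 14.4% in WT, against 1.79% to 3.03% in the others. Counts were divided by a size factor for each library, and the results are called normalized counts. A floor of 3 counts was worth 1.69 to 8.21 normalized counts, and it covers counting error only. *Patz1* itself had 1838, 1983 and 1843 normalized counts in the WT libraries and 853, 862 and 862 in the KO libraries, a mean of 0.455 times the WT level. It lies on chromosome 11, and no centred value is given for it. In the study, western blots showed that the PATZ1 protein signal was lost in the KO lines. All 7 ESC markers were detected (*Pou5f1*, *Nanog*, *Sox2*, *Zfp42*, *Esrrb*, *Klf4* and *Tfcp2l1*), and their sum was 116439 to 119957 in WT and 124908 to 128546 in KO. None of them passed the test, and with the replicate number as a block *Pou5f1* and *Zfp42* were higher in KO by 0.14 and 0.15 on the log2 scale (DESeq2 adjusted p = 0.0405 and 0.0298). Genes of chromosome 11 lay lower in KO by a median of 0.27 on the log2 scale and genes of the distal part of X lay higher by 0.44. Values with these 2 regions centred are given where they change a result.

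*Sv2a*, on chromosome 3 (GRCm38, 96181151 to 96195521, plus strand), had 32.6, 33.9 and 41.1 normalized counts in WT and 268, 290 and 246 in KO. Every KO library was above every WT library, and the closest pair still differed several times over. The mean was 35.9 ± 4.56 (SD, n = 3) in WT and 268 ± 22.1 in KO, a 7.47-fold difference, with a log2 fold change of KO over WT of 2.97 and a standard error (SE) of 0.23. The raw counts behind these values were 57, 48 and 15 in WT and 475, 489 and 93 in KO, so each library was above the floor. Within replicates 1, 2 and 3 the log2 ratio of KO to WT was 3.04, 3.10 and 2.58. Among the 11524 genes with a mean of at least 50 normalized counts, *Sv2a* had the highest log2 fold change. No other annotated gene overlapped it. In bulk samples such as these, more cells that express a gene and more RNA per cell cannot be told apart.

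*Igsf21*, on chromosome 4 (140026846 to 140246784, minus strand), had 26.9, 21.9 and 41.1 normalized counts in WT and 177, 155 and 143 in KO. Its libraries too were fully apart, although WT replicate 3 was the highest of its genotype and KO replicate 3 the lowest of its own. The mean was 29.9 ± 9.95 (SD, n = 3) in WT and 158 ± 17.5 in KO, a 5.29-fold difference with a log2 fold change of 2.54 (SE 0.28). The raw counts were 47, 31 and 15 in WT and 314, 262 and 54 in KO. The log2 ratios within replicates were 2.72, 2.83 and 1.80, the smallest in the shallow libraries. *Igsf21* stood at place 3 of the same 11524 genes. The gene overlaps the antisense genes *Gm13027* and *Gm13029*, and the use of strand in the counting is not given in the sources used here, so reads of those genes cannot be told apart from its own.

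**Figure D1:**
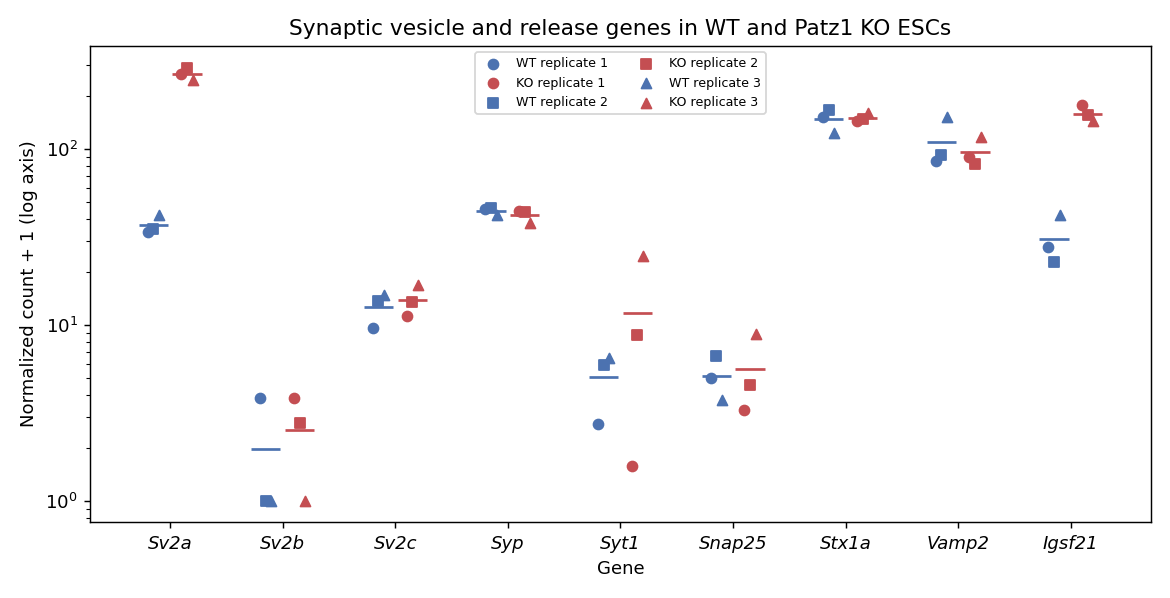
Normalized count plus 1 (log axis) of the 9 genes in each library. Blue is WT, red is KO, the symbol shape marks the replicate and each horizontal line is the mean of 3 libraries. *Sv2a* (246 to 290 in KO) and *Igsf21* (143 to 177 in KO) lie wholly above their WT libraries, and the points of the other 7 genes overlap between genotypes.

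Of the other SV2 genes, *Sv2c* did not pass the test and *Sv2b* was too low for one. *Sv2c*, on chromosome 13 (95954594 to 96132577, minus strand), had 8.58, 12.7 and 13.7 normalized counts in WT and 10.2, 12.5 and 15.9 in KO. The groups overlapped, and the log2 fold change was 0.13 with a 95% interval of -1.06 to 1.32 (two-sided Wald test of DESeq2, p adjusted over all genes tested = 0.957). Its upper bound lies below the *Sv2a* value of 2.97 (95% interval 2.53 to 3.41), for which *Sv2a* was itself chosen. *Sv2b*, on chromosome 7 (75114894 to 75309262, minus strand), had raw counts of 5, 0 and 0 in WT and 5, 3 and 0 in KO. Both genotypes averaged no more than 3 counts per library, the floor, so no fold is given and a change of *Sv2b* was not detectable at this depth.

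The vesicle proteins that commonly serve as markers of neurons had low counts in both genotypes. *Syp*, on chromosome X (7638471 to 7653256, plus strand, outside the shifted distal part), had 44.6, 45.2 and 41.1 normalized counts in WT and 43.5, 42.7 and 37.0 in KO. The libraries overlapped, and the log2 fold change was -0.08 with a 95% interval of -0.72 to 0.56 (DESeq2, adjusted p = 0.952). *Syt1*, on chromosome 10 (108497650 to 109010982, minus strand), had raw counts of 3, 7 and 2 in WT and 1, 13 and 9 in KO. Its KO libraries ran from the lowest to the highest of all 6, at 0.564 to 23.8 normalized counts, and the log2 fold change was 1.33 with a 95% interval of -0.74 to 3.40 (DESeq2, adjusted p = 0.619). The value rested on single libraries: it was 0.12 without KO replicate 3, 1.98 without KO replicate 1, 0.32 without the shallow replicate 3 of both genotypes and 0.60 with the replicate number as a block. The interval reaches past the fold change of *Sv2a*, so these counts cannot say whether *Syt1* rose as much. *Syt1* overlaps *Gm5136* on the same strand.

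Of the 3 SNARE genes, 2 were tested, and neither passed. *Stx1a*, on chromosome 5 (135023482 to 135051100, plus strand), had 152, 166 and 123 normalized counts in WT and 144, 147 and 159 in KO. The log2 fold change was -0.01 with a 95% interval of -0.40 to 0.37 (DESeq2, adjusted p = 0.989). *Vamp2*, on chromosome 11 (69088490 to 69092384, plus strand), had 84.6, 91.8 and 151 normalized counts in WT and 89.7, 81.3 and 116 in KO, with the shallow replicate 3 highest in both. Its log2 fold change was -0.16 with a 95% interval of -0.69 to 0.36 (DESeq2, adjusted p = 0.869), and it was 0.10 once chromosome 11 was centred. *Snap25*, on chromosome 2 (136713453 to 136782428, plus strand), had raw counts of 7, 8 and 1 in WT and 4, 6 and 3 in KO, with overlapping libraries, a log2 fold change of -0.12 and a 95% interval of -2.12 to 1.87. It was too low to receive an adjusted p, as was *Sv2b*.

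Of the 7 genes not used in the choice, 5 received an adjusted p in DESeq2 and 0 passed the threshold of 0.05, where 7.49% of the 15309 genes tested did so (1146 genes, of which 414 were higher in KO and 732 lower, or 2.7% and 4.78%). At an unadjusted p under 0.05 the count was also 0 in DESeq2, and in edgeR, a second count test, 0 of the 4 genes tested passed either threshold, where 6.41% of all genes passed the adjusted one. The libraries of all 7 overlapped between genotypes, and 25.6% of the genes tested had libraries that did not overlap. A p above the threshold does not show that these genes were equal, and the intervals give what remains possible.

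Levels were compared between genes per kb of exon, since longer genes gather more reads. In WT the order was *Stx1a* (55.1 ± 8.15 normalized counts per kb, SD, n = 3), *Vamp2* (28.6 ± 9.50), *Igsf21* (15.1 ± 5.03), *Syp* (8.37 ± 0.43), *Sv2a* (7.73 ± 0.98), *Sv2c* (1.20 ± 0.28), *Snap25* (0.61 ± 0.21), *Syt1* (0.49 ± 0.24) and *Sv2b* (0.11 ± 0.20). The libraries of *Syp* and *Sv2a* overlapped, as did those of *Snap25* and *Syt1* and of *Syt1* and *Sv2b*. In KO, *Igsf21* (80.1 ± 8.82) and *Sv2a* (57.8 ± 4.77) led, followed by *Stx1a* (56.3 ± 2.81), whose libraries overlapped those of *Sv2a*. *Vamp2* (25.1 ± 4.80) and *Syp* (7.88 ± 0.68) came next, and *Sv2c* (1.32 ± 0.30), *Syt1* (1.28 ± 1.43), *Snap25* (0.67 ± 0.44) and *Sv2b* (0.18 ± 0.17) followed, each overlapping the next. With the longest transcript as the length, *Syp* (15.3 per kb) stood beside *Igsf21* (15.1) in WT, and *Stx1a* (69.2) above *Sv2a* (61.8) in KO.

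These levels were modest among all genes. The level of *Sv2a* per kb was above that of 32.9% of the 19163 detected genes with a position in WT and above that of 55.1% in KO. The shares for *Igsf21* were 39.7% in WT and 59.7% in KO. *Vamp3* (cellubrevin), a paralog of *Vamp2* used in most cells, stood at 678 normalized counts per kb in WT and 677 in KO, far above *Vamp2*.

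**Figure D2:**
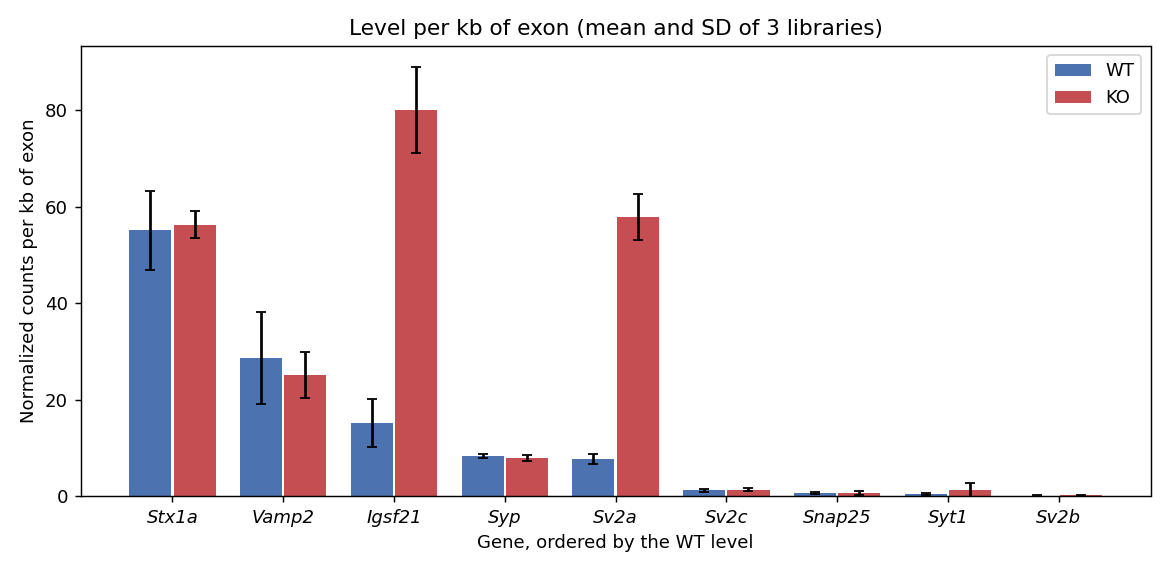
Level of the 9 genes in normalized counts per kb of exon, ordered by the WT level. Bars are the means of 3 libraries (blue WT, red KO) and error bars the SD. *Sv2a* goes from 7.73 to 57.8 and *Igsf21* from 15.1 to 80.1, and the WT and KO libraries behind the other pairs of bars overlap.

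The genes beside *Sv2a* and *Igsf21* were examined to see whether the rise extended along the chromosome. The neighbours were the 5 genes on each side with at least 10 counts in all. *Sf3b4*, a splicing factor gene 3.59 kb from *Sv2a*, had a log2 fold change of 0.01, and *Bola1*, 1.07 kb away on the other side, had one of 0.004. Over the 10 neighbours of *Sv2a* (with *Plekho1*, *Vps45*, *Otud7b*, *Mtmr11*, *Hist2h2ab*, *Hist2h2ac*, *Hist2h2be* and *Hist2h3c2*) the log2 fold change ran from -0.19 to 0.44 with a median of 0.16, out to a gap of 185 kb from the gene. The 4 histone genes have near-identical copies and their counts are uncertain. The log2 fold change of *Hist2h2ac*, 0.41 with all libraries, ran from 0.048 to 1.04 on leaving out 1 library.

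*Igsf21* lies in a sparser stretch, with *Klhdc7a* 58.8 kb away on one side (log2 fold change -0.11) and *Arhgef10l* 268 kb away on the other (0.02). Its other neighbours were *Iffo2*, *Aldh4a1*, *Tas1r2*, *Pax7*, *Rcc2*, *Padi6*, *Padi4* and *Padi3*, out to a gap of 539 kb from the gene. *Tas1r2* and *Pax7* averaged no more than 3 counts per library in both genotypes and are given no fold. Over the other 8 neighbours the log2 fold change ran from -1.17 to 0.02 with a median of -0.07. The lowest value belonged to *Padi6*, which was also too low to receive an adjusted p. It had raw counts of 9, 4 and 2 in WT and 2, 2 and 2 in KO. Its log2 fold change ran from -1.91 to -0.73 on leaving out 1 library. Of the 17 neighbours with an adjusted p in DESeq2, 0 passed the threshold, and at an unadjusted p under 0.05 the count was 0 in both DESeq2 and edgeR. Over all genes 7.49% passed the adjusted threshold in DESeq2 and 6.41% in edgeR, so a count of 0 among 17 genes says little about the neighbours as a group.

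**Figure D3:**
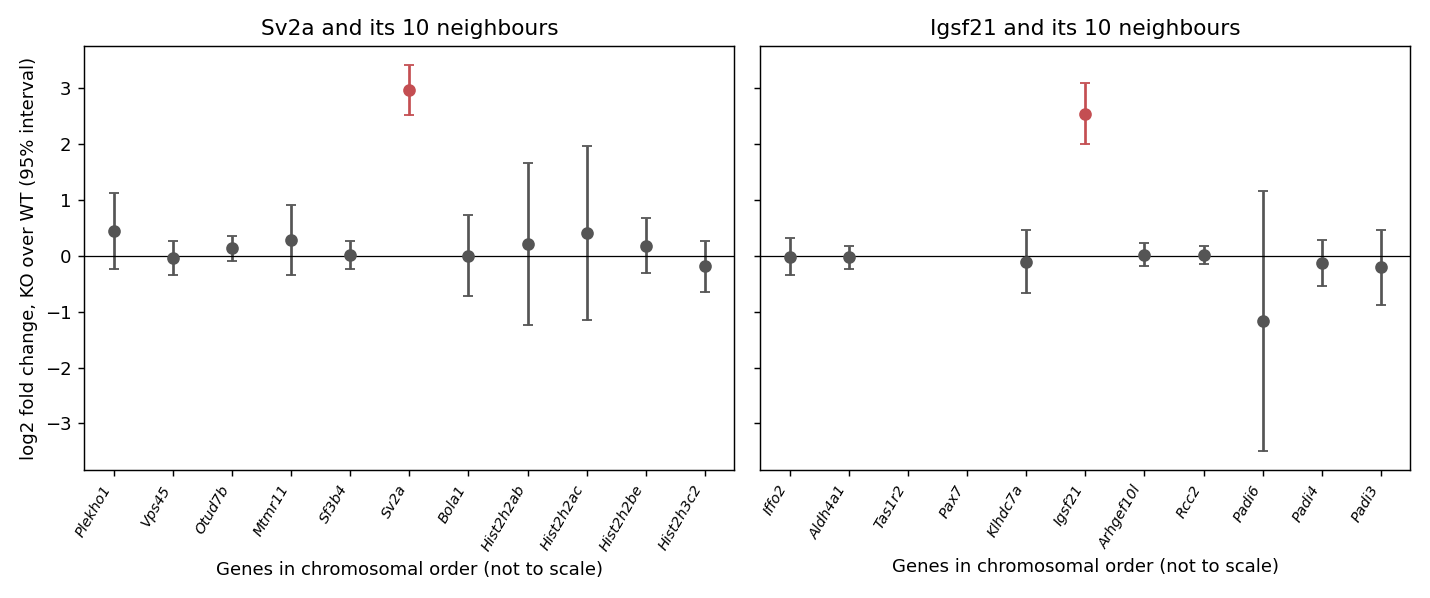
Log2 fold change of KO over WT (points) with its 95% interval (bars) for *Sv2a* (left, red) and *Igsf21* (right, red) and the 5 genes on each side of each (grey), in chromosomal order and not to scale. No point is drawn for *Tas1r2* and *Pax7*, which had too few counts. The other neighbours lie between -1.17 and 0.44 with intervals that include 0, below 2.97 for *Sv2a* and 2.54 for *Igsf21*.

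Genes with a pattern like that of *Sv2a* across the 6 libraries were sought among the 11523 other genes with a mean of at least 50 normalized counts. Likeness was the root mean square difference of log2(normalized count + 1) after the mean of each gene was removed, so a gene must rise by about the same fold to be close. *Sv2a* and *Igsf21* were both chosen for a high rise, so that they lie near each other restates the choice. The nearest to *Sv2a* were *Igsf21* (0.30), *Prph* (0.31), which encodes the neuronal intermediate filament peripherin, and *Hist1h1t* (0.31), a linker histone of the testis. The nearest to *Igsf21* were *Sv2a* (0.30), *Prph* (0.36) and *Aire* (0.43), the autoimmune regulator of the thymus. *Hist1h1t* had 177, 203 and 129 normalized counts in WT and 1183, 1667 and 1102 in KO, and *Aire* had 112, 58.6 and 63.0 in WT and 352, 331 and 312 in KO. Since these genes were chosen for likeness to a gene that was itself chosen for its rise, their separate libraries follow from the choice.

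To ask whether the neuronal programme rose with *Sv2a* and *Igsf21*, 5 lists of other neuronal genes were read in the same fit. They were drawn up with earlier results of these data known, and they held 193 genes, of which 141 received an adjusted p. Of these, 18 passed the threshold (12.8%, against 7.49% of all genes), 6 higher and 12 lower in KO. With the replicate number as a block, which takes out what same-numbered libraries share and had a background of 14.6%, 24 of 132 passed (18.2%), 10 higher and 14 lower (6.68% and 7.95% of all genes). After chromosome 11 and distal X were centred, 13 of 156 passed (8.33%, against 4.85% of all genes), 6 higher and 7 lower (1.83% and 3.01% of all genes). With centring and the block together, 22 of 141 passed (15.6%, against 10.8%), 10 higher and 12 lower (5.85% and 4.94% of all genes). The median log2 fold change over the 141 genes was -0.05, and over all genes tested it was 0.009.

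Of 33 other genes of synaptic vesicle proteins, 25 were tested, 0 rose and 2 fell (8%, close to the 7.49% of all genes). The median log2 fold change was -0.19. *Sncg*, which encodes gamma-synuclein, fell from 122, 102 and 131 normalized counts to 80.7, 56.9 and 52.9 (log2 fold change -0.85, SE 0.26, DESeq2 adjusted p = 0.0191). *Atp6v0a1*, a subunit of the proton pump that acidifies vesicles, fell by 0.38 on the log2 scale (DESeq2 adjusted p = 0.0296), but it lies on chromosome 11 and had an adjusted p of 0.835 once that chromosome was centred. The highest levels per kb were those of *Dnajc5*, a vesicle chaperone also used in other cells (280 in WT and 296 in KO, DESeq2 adjusted p = 0.822), and *Scamp5* (250 and 202, log2 fold change -0.32). *Scamp5* missed the threshold in DESeq2 (adjusted p = 0.0583) and passed it in edgeR (adjusted p = 0.0496), with the replicate block (0.00989) and without the shallow replicate 3 of both genotypes (0.0300). Without WT replicate 1, 2 or 3 or KO replicate 2 or 3 in turn, the *Sncg* call was lost (adjusted p 0.0596 to 0.233), and *Atp6v0a1* was lost without WT replicate 1 or 2 or any KO replicate (0.0734 to 0.26).

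Of 42 genes of release, the active zone and vesicle recycling, 35 were tested, 1 rose and 2 fell (8.57%, also close to that of all genes), with a median of -0.12. *Sh3gl3* (endophilin A3), which bends membrane in vesicle uptake, rose from 124, 122 and 76.7 normalized counts to 164, 206 and 177 (log2 fold change 0.71, SE 0.22, DESeq2 adjusted p = 0.0230). *Ppfia4*, which encodes a liprin-alpha scaffold of the active zone, fell from 355, 274 and 361 to 168, 178 and 198 (-0.87, SE 0.18, adjusted p = 4.11e-05), and it passed in every alternative fit. *Nsf*, the ATPase that takes SNARE complexes apart in all cells, fell by 0.32 (adjusted p = 0.0263) and is on chromosome 11, with an adjusted p of 0.925 after centring. *Napa* (alpha-SNAP), its partner, had the highest level per kb of the list (577 in WT and 581 in KO, DESeq2 adjusted p = 0.990). The *Sh3gl3* call was lost in edgeR (adjusted p = 0.0614) and without any 1 of the 6 libraries (0.0506 to 0.297), and that of *Nsf* without WT replicate 1 or 2 or any KO replicate (0.0843 to 0.248).

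Of 54 genes of synaptic adhesion and the postsynaptic side, 37 were tested, 3 rose and 4 fell (18.9%, against 7.49% of all genes), with a median of 0.05. *Nrxn2*, the neurexin that IGSF21 binds, had 65.8, 88.3 and 79.4 normalized counts in WT and 125, 142 and 119 in KO (log2 fold change 0.75, SE 0.24, DESeq2 adjusted p = 0.0236). *Camk2a*, the alpha chain of calcium/calmodulin-dependent kinase II, rose from 118, 119 and 140 to 222, 223 and 238 (0.88, SE 0.18, adjusted p = 6.59e-05). *Camk2b*, the beta chain, fell from 451, 455 and 389 to 198, 248 and 222 (-0.96, SE 0.16, adjusted p = 1.1e-07). The 2 chains of the same kinase thus moved in opposite directions, and both passed in every alternative fit, also with chromosome 11, where *Camk2b* lies, centred. *Ntrk3*, a neurotrophin receptor, rose by 1.31 (SE 0.35, DESeq2 adjusted p = 0.00400). The others that fell were the adhesion genes *Flrt2* (-0.65), *Cadm4* (-0.62) and *Clstn1* (-0.30), the last of which had the second highest level per kb of the list.

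The latrophilin gene *Lphn1* had the highest level per kb of this list, at 337 in WT and 392 in KO. It missed the threshold in DESeq2 (adjusted p = 0.456) and passed with the replicate block (adjusted p = 0.00595). Calls were lost without WT replicate 1 or 2 or KO replicate 1 or 2 for *Nrxn2* (adjusted p 0.0585 to 0.294), *Cadm4* (0.0621 to 0.199) and *Flrt2* (0.159 to 0.432), without WT replicate 1 or 2 or KO replicate 2 for *Ntrk3* (0.108 to 0.151), and without any 1 library for *Clstn1* (0.0879 to 0.263). In edgeR, *Ntrk3* and *Flrt2* had adjusted p-values of 0.0573 and 0.0837. With chromosome 11 and distal X centred, *Flrt2* and *Clstn1* narrowly missed the threshold (DESeq2 adjusted p = 0.0564 and 0.0518) at nearly the same log2 fold changes.

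Of 42 pan-neuronal and secretory granule genes, 34 were tested, 2 rose and 4 fell (17.6%, against 7.49% of all genes), with a median of -0.03. The largest changes were those of intermediate filament genes, and they went both ways. *Prph* rose from 204, 196 and 164 normalized counts to 1005, 1090 and 893 (log2 fold change 2.38, SE 0.14, DESeq2 adjusted p = 1.04e-59). The neurofilament genes fell: *Nefm* from 207, 137 and 227 to 7.34, 3.56 and 2.64 (-5.19, SE 0.42, adjusted p = 7.48e-32), *Nefl* from 858, 681 and 496 to 177, 198 and 137 (-1.97, SE 0.20, adjusted p = 1.37e-20), and *Nefh* from 2139, 1865 and 1640 to 1319, 1270 and 1387 (-0.51, SE 0.12, adjusted p = 0.000654). The *Nefm* value of KO replicate 3 lay under the floor, worth 7.93 normalized counts in that library. The log2 fold change of *Nefm* ran from -5.80 to -4.90 on leaving out 1 library. *Nefh* is on chromosome 11 and had an adjusted p of 0.215 after centring.

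*Crmp1*, of growth cone guidance, fell by 1.04 (SE 0.17, DESeq2 adjusted p = 4.1e-08), and *Ncam1*, the neural cell adhesion molecule, rose by 0.46 (SE 0.14, adjusted p = 0.0151), a call lost on leaving out the first WT or the first or second KO library (0.0996 to 0.197). *Tubb3*, a tubulin of neurons, and *Stmn2*, a regulator of their microtubules, had the highest levels per kb of the list. The mean of *Tubb3* was 3981 ± 500 (SD, n = 3) in WT libraries and 4244 ± 605 in KO libraries (DESeq2 adjusted p = 0.837). *Stmn2* had 5840, 5115 and 5490 in WT and 6355, 6456 and 6763 in KO. Its log2 fold change of 0.25 missed the threshold (DESeq2 adjusted p = 0.0798) and passed it with the replicate block (adjusted p = 0.00109). With that block, 9 genes of the list passed, 5 higher and 4 lower (29%, against 14.6% of all genes).

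Of 22 neural progenitor and proneural genes, 10 were tested and 0 passed in DESeq2 or edgeR, while at an unadjusted p under 0.05 the count was 1 in DESeq2 and 2 in edgeR. Over all genes 7.49% and 6.41% passed, so a count of 0 in so short a list says little. The median was -0.13. *Nes*, the intermediate filament of neural progenitors, had 668, 704 and 778 normalized counts in WT and 334, 536 and 618 in KO (log2 fold change -0.54, SE 0.19, DESeq2 adjusted p = 0.0509). It passed with the replicate block (adjusted p = 0.000235), without KO replicate 3 (0.00521), without replicate 3 of both genotypes (0.00648) and with a filter on low counts (0.0469). *Sox1*, an early neural factor, averaged 83.9 ± 2.17 in WT libraries and 71.5 ± 17.0 in KO libraries (SD, n = 3, DESeq2 adjusted p = 0.709).

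**Figure D4:**
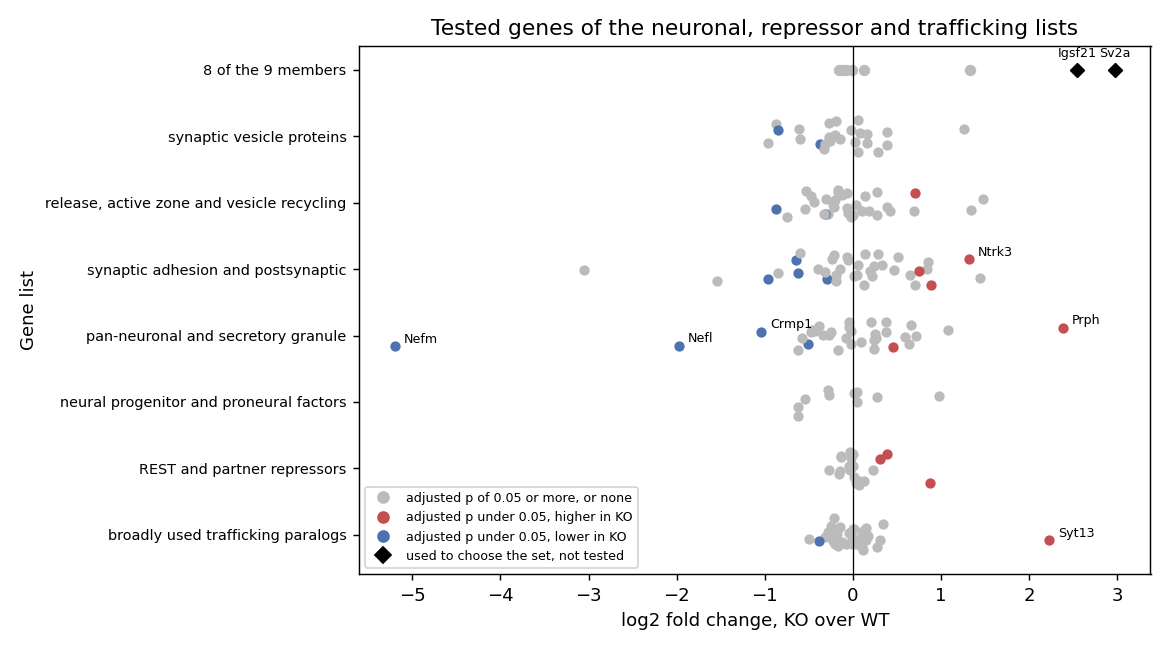
Log2 fold change of KO over WT for 8 of the 9 genes (*Sv2b* had too few counts) and for the genes with an adjusted p in each of the 7 lists, 1 point per gene. Red and blue mark genes with an adjusted p under 0.05 (higher and lower in KO), grey the rest, and black diamonds *Sv2a* and *Igsf21*. Names are given for genes under 0.05 that changed by at least 1. Most points of each list lie close to 0, and *Prph* (2.38) and *Nefm* (-5.19) stand farthest out among those that passed.

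*Rest*, the repressor that holds many neuronal genes low, did not pass the test. It had 5575, 5109 and 5838 normalized counts in WT and 5357, 5142 and 5700 in KO (log2 fold change -0.03, SE 0.10, DESeq2 adjusted p = 0.941). Of 20 genes of REST and its partner repressors, all were tested, 3 rose and 0 fell, with a median of -0.001. The share passed was 15%, against 7.49% of all genes (2.7% for rises alone). With chromosome 11 and distal X centred it was 10%, against 4.85% of all genes. *Rcor2*, a CoREST scaffold, rose from 2060, 1962 and 1859 to 3855, 3430 and 3549 (0.88, SE 0.10, adjusted p = 2.54e-16) and passed in every alternative fit. *Chd4*, a remodeller of the NuRD complex with the highest level per kb of the list, rose by 0.31 (adjusted p = 0.0216), and *Hdac1*, the second highest, did not pass (0.07, DESeq2 adjusted p = 0.875). *Kdm5c*, a histone H3K4 demethylase on the distal part of X, was higher by 0.38 (adjusted p = 0.0108) but stood at -0.06 once that region was centred. In edgeR, *Chd4* and *Kdm5c* had adjusted p-values of 0.0779 and 0.0673. The call was lost without WT replicate 1 or 2 or any KO replicate for *Chd4* (0.0504 to 0.232), and without WT replicate 1 or 2 or KO replicate 1 or 3 for *Kdm5c* (0.063 to 0.167).

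Paralogs of the vesicle and SNARE genes that most cells use in membrane traffic were read as a last list. Of 36 such genes, 33 were tested, 1 rose and 1 fell (6.06%, against 7.49% of all genes), with a median of -0.006. With the replicate block 4 passed (12.1%, against 14.6%), 0 higher and 4 lower. *Syt13* rose from 3.43, 4.24 and 2.74 normalized counts to 10.2, 15.4 and 29.1 (DESeq2 adjusted p = 0.0413), a call lost with the block (adjusted p = 0.0584), on centring the shifted regions (0.0579, or 0.0746 with both) and without any 1 library (0.0546 to 0.255). *Syngr2* fell by 0.39 on the log2 scale (adjusted p = 0.0393), lies on chromosome 11 and had an adjusted p of 0.806 after centring, 0.0664 in edgeR, and 0.128 to 0.398 without WT replicate 1 or 2 or any KO replicate. *Ykt6* and *Vamp3*, SNAREs with the highest levels per kb, did not pass (log2 fold changes -0.18 and -0.001, DESeq2 adjusted p = 0.388 and 0.999).

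Markers of other cell types were summed in each library to see whether such cells moved with *Sv2a* and *Igsf21*. The sum of 7 neuron markers was 9345 to 9868 normalized counts in WT and 10488 to 11591 in KO. It was higher in every KO library, and *Stmn2* made up 58.3% of it and *Tubb3* most of the rest. *Rbfox3* and *Dcx*, which mark postmitotic and young neurons, had at most 13 and 19 raw counts in any library, with log2 fold changes of 0.24 and -0.43. Those of *Map2*, *Elavl4* and *Elavl3* were 0.63, 0.38 and -0.27, with at most 93, 110 and 155 raw counts in any library. Of the 7, 0 passed in DESeq2 or edgeR, and at an unadjusted p under 0.05 the count was 1 in DESeq2 and 2 in edgeR. With the replicate block *Stmn2* passed (DESeq2 adjusted p = 0.00109), and no other marker of the 7 did.

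The sum of 6 astrocyte and oligodendrocyte markers was 85.2 to 112 in WT and 90.9 to 125 in KO, with *Aqp4* at 0 in all libraries. That of 6 fibroblast feeder markers was 16.4 to 30.4 in WT and 13.2 to 19.2 in KO. The neuroendocrine sum, 91.5% of it *Chga*, was 177 to 236 in WT and 142 to 174 in KO, lower in every KO library, with *Dbh* at 0. *Th* went the other way, from 3.43, 7.06 and 0 to 10.7, 12.5 and 10.6, and did not pass the test (DESeq2 adjusted p = 0.388). For primitive endoderm the ranges were 133 to 189 and 160 to 214, with *Dab2* as the only marker of 6 past the threshold (log2 fold change 1.33). *Sox17*, *Pdgfra*, *Gata4*, *Gata6* and *Sox7* had log2 fold changes of -0.83, -0.51, -0.17, -0.12 and -0.007. For trophoblast the ranges were 804 to 999 and 615 to 849, with *Cdx2* as the only marker of 5 past the threshold (-0.72). Over all genes 7.49% passed it. The part of any of these in the rise of *Sv2a* and *Igsf21* was not tested.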

How the data were processed

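The 6 RNA-seq libraries (3 WT, 3 KO) were grouped by their titles. The authors deposited raw read counts per gene symbol, 1 file per library, with no normalization. Their processing notes name TopHat2 2.1.1, Bowtie2 2.3.1.0, featureCounts 1.6.2, DESeq2 and the mm10 build. The annotation and the use of strand are not given in the sources used here. Without molecular identifiers, duplicate reads count as separate.

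Counts were fitted with DESeq2 1.42.0 in R 4.3.3, on the whole table (genotype alone, two-sided Wald test, Benjamini-Hochberg over all genes, threshold 0.05, independent filtering at 0.1). The study's methods name DESeq2 and this threshold. Intervals are 95%, from the SE. Alternatives were edgeR 4.0.16 (quasi-likelihood test), TMM size factors, a count filter (10 counts or more in 3 or more libraries), all genes kept without independent filtering, a replicate block, leaving out libraries, and centring chromosome 11 and distal X. The code was tested on simulated data.

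Libraries with the same replicate number deviated together from the mean of their genotype (r of 0.469, 0.619 and 0.684 over 11524 genes). Correlations between libraries with different numbers were not computed. A replicate block by these numbers was therefore run as an alternative, and the main fit, with genotype alone, leaves any pairing out. No library repeated another, since over all 15 pairs the lowest chi-square divided by its degrees of freedom was 9.50.

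Positions and exon lengths came from GENCODE M21 (21777 symbols directly, 1260 through an older symbol), and promoters from RefSeq. Members, lists and tests were chosen with earlier results of these data known. Named genes are the 9 members, the neighbours, *Rest*, *Patz1*, the 3 genes most like each of *Sv2a* and *Igsf21*, and, of each list, up to 5 genes past the threshold in each direction with a mean of at least 10 normalized counts in the higher genotype, plus the 2 with the highest level per kb. Of the 193 neuronal genes, 52 received no adjusted p.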

Additional observations from a re-analysis of the deposited data

How the results depend on the processing

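The log2 fold change of *Sv2a* stayed between 2.90 and 3.07 and that of *Igsf21* between 2.35 and 2.76 in the alternatives run. The count of the other 7 members past the threshold was 0 in each fit. Depth limits *Sv2b*, *Syt1* and *Snap25*, whose few reads leave wide intervals. *Sv2b*, *Tas1r2* and *Pax7* had too few counts for a fold in any fit. With the replicate block 2131 genes passed in all, and on leaving out 1 library 583 to 1341 did. In the list of vesicle proteins, 1 gene passed with chromosome 11 and distal X centred. For progenitor and proneural genes it was 1 with the count filter, 1 with the replicate block, 1 without the shallow libraries and 1 with centring and the block together. For REST partners it was 1 in edgeR. For trafficking paralogs it was 1 in edgeR, 1 without independent filtering, 4 with the block, 0 with centring and 1 with centring and the block.

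On leaving out 1 library, the count was 0 to 1 for vesicle proteins, 1 to 2 for release genes, 2 to 7 for adhesion genes, 5 to 8 for pan-neuronal genes, 0 to 1 for progenitor genes, 1 to 3 for REST partners and 0 to 3 for trafficking paralogs. Over all genes 583 to 1341 passed in these fits, against 1146 with all libraries. A change in a list count is therefore not read as particular to the list. Of the 23 named list genes past the threshold, 8 passed in every alternative, and 14 were lost on leaving out at least 1 library. Without the shallow libraries the calls of *Sncg* (adjusted p = 0.129), *Sh3gl3* (0.0895), *Clstn1* (0.0960) and *Syt13* (0.293) were lost, and without independent filtering those of *Clstn1* (0.0502), *Flrt2* (0.0530) and *Syt13* (0.0522). Beyond the values beside each gene, the replicate block changed no other call of a named member, neighbour, list gene or marker. The log2 fold change turned its sign with centring for *Vamp2* (0.10, and 0.14 with the block), *Kdm5c* (-0.060 and -0.058) and *Ykt6* (0.094 and 0.093). It turned without the shallow libraries for *Vps45* (0.049), *Iffo2* (0.051), *Rcc2* (-0.034), *Napa* (-0.051) and *Vamp3* (0.016), and for *Vamp3* also with TMM (0.0025), the block (0.00069) and both centring and the block (0.00088). *Ykt6* and *Vamp2* lie on chromosome 11 and *Kdm5c* on distal X, and the cause of the other turns was not tested.

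The log2 fold change also turned its sign on leaving out 1 library for genes whose value with all libraries lay from -0.16 (*Vamp2*) to 0.22 (*Hist2h2ab*). Over the 6 fits it ranged from -0.086 to 0.28 (*Sv2c*), -0.58 to 0.28 (*Snap25*), -0.095 to 0.088 (*Stx1a*), -0.32 to 0.072 (*Vamp2*), -0.12 to 0.057 (*Vps45*), -0.069 to 0.10 (*Sf3b4*), -0.19 to 0.25 (*Bola1*), -0.20 to 0.67 (*Hist2h2ab*), -0.093 to 0.11 (*Iffo2*), -0.071 to 0.0013 (*Aldh4a1*), -0.31 to 0.035 (*Klhdc7a*), -0.015 to 0.052 (*Arhgef10l*), -0.012 to 0.035 (*Rcc2*), -0.12 to 0.082 (*Napa*), -0.032 to 0.20 (*Tubb3*), -0.038 to 0.14 (*Hdac1*) and -0.025 to 0.026 (*Vamp3*). By the longest transcript, the mean level per kb over the 6 libraries was 14.9 for *Syp*, 68.5 for *Stx1a* and 46.4 for *Vamp2*.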
